A study of Actinidia chinensis with 12 samples.

Results

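In ripe kiwifruit, 49 of 22199 genes tested, out of 39040 identifiers in all, had a lower level in the flesh core than in whole fruit in both cultivars studied, Hongyang and Jinyan. The members were chosen on these values. For each gene the median CPM (counts relative to library size, scaled by TMM factors that correct for library composition) of each group plus 1 was taken, and the ratio of whole fruit over core had to reach 4 in both cultivars, with a whole fruit value of at least 6 in either of them. This left 50 genes, and 1 was then removed because its value differed at least 8-fold between the cultivars in both tissues. That gene, Achn332071, was lower in Hongyang, and its ratio of Jinyan over Hongyang was 20.8 in the core and 15.7 in whole fruit. The tissue difference of the members is therefore a description of the choice and not a finding. The 4 groups, with 3 libraries each, were Hongyang flesh core, Hongyang whole fruit, Jinyan flesh core and Jinyan whole fruit. All came from ripe fruit taken straight from the tree, and the labels name no treatment. The study compared the cultivars and compared the core with the rest of the fruit; its design text speaks of the periphery where the sample labels say whole fruit, and the label is used here. Whole fruit as labelled may include core tissue, and no label says whether a library stands for a fruit, a tree or a pool, so the spread between replicates may be technical.

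The core of a kiwifruit is the pale central column around which the seeds are set in the inner pericarp, and the outer pericarp and the skin lie outside it. Seeds, green or yellow flesh and skin each carry their own transcripts, among them storage proteins in seeds and cutin and wax enzymes in the skin. Hongyang is known for a red zone around the core, coloured by anthocyanins, and Jinyan for yellow flesh. The table pairs no identifier with a gene name, so the members are given by identifier, their roles are not given, and the tissue labels could not be checked against marker genes.

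Library totals ran from 6870519 to 21222578 counts in 11 libraries. Hongyang whole fruit replicate 3 held 1888744, so that 3 counts there correspond to 1.19 CPM, against 0.142 to 0.393 CPM in the other libraries. The 3 Hongyang whole fruit libraries also differed from each other more than those of the other groups, with Spearman correlations of 0.799 to 0.941 across genes, against 0.959 to 0.977 within the other groups; genes are not independent replicates.

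Together the 49 members took up little of the core transcriptome. Their summed level was 497, 166 and 220 CPM in Hongyang core replicates 1 to 3, against 2643, 1338 and 6276 CPM in Hongyang whole fruit replicates 1 to 3. In Jinyan the sum was 242, 243 and 142 CPM in the core, against 2423, 2596 and 2515 CPM in whole fruit. Jinyan whole fruit libraries lay close together, while the Hongyang whole fruit libraries spread over a wide range. As a share of all counts the members made up 0.0163 to 0.0491% of the Hongyang core and 0.132 to 0.837% of Hongyang whole fruit, with 0.0112 to 0.0213% in the Jinyan core and 0.269 to 0.283% in Jinyan whole fruit. In bulk tissue, fewer cells of a type and less RNA per cell cannot be told apart.

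**Figure D1:**
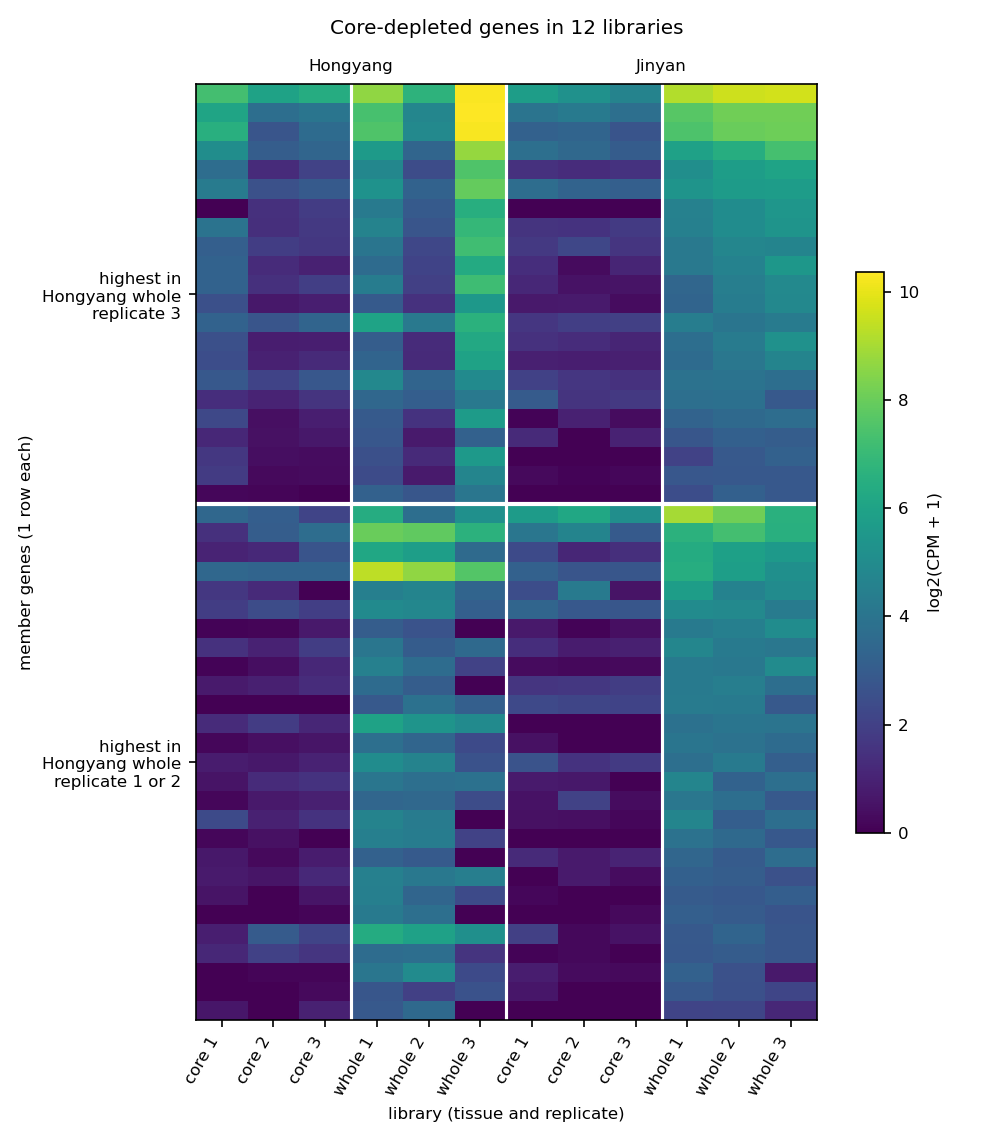
Level of each of the 49 members (rows) in the 12 libraries (columns), as log2(CPM + 1), with core left of whole fruit in each cultivar. Rows above the white line are the 22 members that were highest in Hongyang whole fruit replicate 3, and rows below it are the other 27; the bright column at replicate 3 covers the upper rows, and several lower rows are dark there.

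Most members were genes of low to moderate level. The median member had a group median of 1.37 CPM in the Hongyang core, against 15.6 CPM in Hongyang whole fruit, and of 0.895 CPM in the Jinyan core, against 17.9 CPM in Jinyan whole fruit. Group medians reached from 4.22 to 403 CPM in Hongyang whole fruit and from 3.41 to 758 CPM in Jinyan whole fruit. In whole fruit, 5 members had a median of 100 CPM or more in Hongyang and 5 in Jinyan, and none did in a core. In the core, 46 members in Hongyang and 44 in Jinyan had a median under 10 CPM. The 3 members with the highest mean level, Achn389411, Achn133381 and Achn050721, held 11.9 to 61.6% of the members' summed CPM in the Hongyang whole fruit libraries, the highest share being in replicate 3, and 39.3 to 53.8% in Jinyan whole fruit.

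The median variation between replicates was higher over the members than over all genes that averaged 5 CPM or more. In Hongyang whole fruit the median coefficient of variation over members was 80.8%, where it was 31.7% over all genes that averaged 5 CPM or more there. In Jinyan whole fruit the same values were 29.3% and 11.8%. No level minimum was applied to the members within a group, and lower counts vary more. Whether level accounts for the difference was not tested. Achn389411, the member with the highest whole fruit median, stood at 598 ± 615 CPM in Hongyang whole fruit. In Jinyan whole fruit it stood at 711 ± 123 CPM (SD, n = 3 each).

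The question of how core and whole fruit differ was put to each cultivar separately. Measured by the ratio the rule used, whole fruit over core, the members ran from 4.03 to 39.1 with a median of 6.69 in Hongyang, and from 4.05 to 33.4 with a median of 7.82 in Jinyan. A ratio of 8 or more was reached by 16 members in Hongyang and 22 in Jinyan. At the edge of the rule, the lowest ratios inside it were 4.03 and 4.16 in Hongyang and 4.05 and 4.06 in Jinyan, while the highest ratios outside it, among genes that met the other conditions, were 3.99 and 3.85 in Hongyang and 3.98 and 3.91 in Jinyan. For the level, the lowest values inside were 6.16 and 7.28 and the highest outside were 5.53 and 5.30, each as median CPM plus 1.

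**Figure D2:**
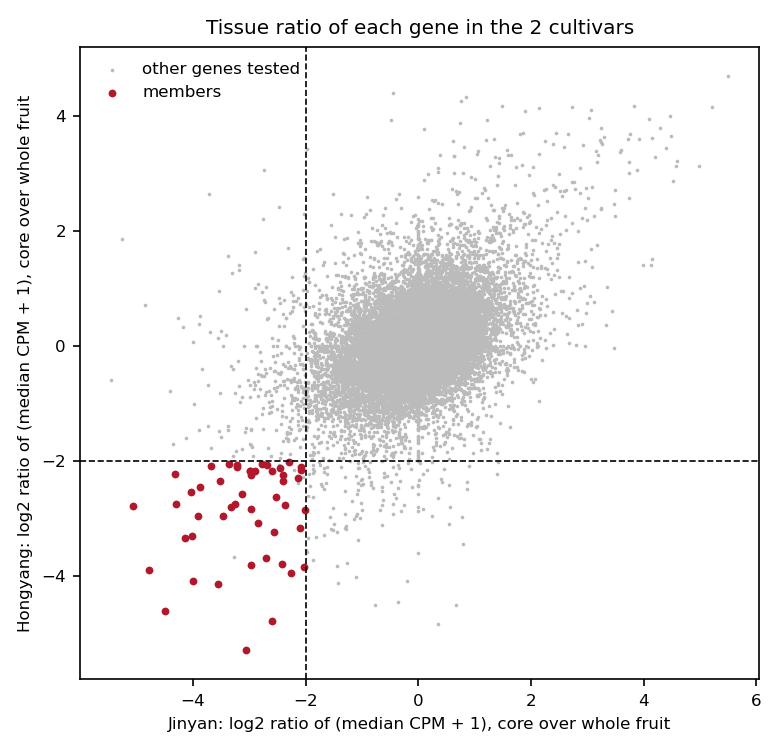
Log2 ratio of core over whole fruit, taken from group medians of CPM plus 1, in Jinyan (horizontal axis) and Hongyang (vertical axis) for every gene tested. Members are red, other genes grey, and the dashed lines mark a 4-fold lower value in the core; the members fill the lower left corner by construction, and other genes beyond 1 dashed line spread widely along the other axis.

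The libraries of the 2 cultivars are separate, so each cultivar shows how genes chosen in the other behaved. In Jinyan, 323 genes (1.46% of those tested) had a ratio of at least 4, and 54 of them (16.7%) also did in Hongyang. The Hongyang ratio was met by 180 genes (0.811%), and the shared 54 genes are 30% of these. Of the 54, 4 missed the level. Among the 323 genes, 250 (77.4%) were lower in the Hongyang core than in Hongyang whole fruit by these medians, where 47.3% of all genes tested were, and their median ratio of whole fruit over core in Hongyang was 1.69 against 0.986 over all. Among the 180 genes, 151 (83.9%) were lower in the Jinyan core, where 46.7% of all genes were, with a median ratio of 2.45 against 0.983. Most genes with a 4-fold lower value in the core of either cultivar missed that size in the other, while most had the same direction.

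Replicate libraries separated the tissues more often in Jinyan than in Hongyang. In Hongyang the 3 core libraries lay below the 3 whole fruit libraries for 25 of 49 members, where 10.5% of all genes tested did. In Jinyan this held for 47 members, where 22.2% of all genes did. In both cultivars it held for 23 members, against 3.34% of all genes. The rule fixed the group medians, so these counts describe the members and nothing is read from them against the other genes. The exceptions in Jinyan were Achn199771 and Achn340221, named after their values were seen. Achn199771 had 6.80, 1.93 and 2.27 CPM in Jinyan core replicates 1 to 3, against 12.8, 13.2 and 6.47 CPM in Jinyan whole fruit. Achn340221 had 0.796, 0.251 and 0.206 CPM in the Jinyan core, against 8.39, 4.97 and 0.647 CPM in Jinyan whole fruit.

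By edgeR's quasi-likelihood test with Benjamini-Hochberg adjustment over all genes tested, at an adjusted p under 0.05, 33 of 49 members passed as lower in the Hongyang core, where 2.18% of all genes did. In Jinyan 47 members passed as lower, where 8.46% of all genes did, and 32 passed in both cultivars, against 0.748% of all genes. No member passed as higher in the core, where 2.5% of all genes did in Hongyang and 8.15% in Jinyan; in either direction the shares of all genes were 4.68% and 16.6%. The choice of members fixed these directions. Achn243641 passed in neither cultivar, as did 80.4% of all genes, and Achn146991 in Hongyang only; both were named after their values were seen. The median log2 fold change of core over whole fruit was -3.67 in Hongyang and -4.33 in Jinyan, where the median of all genes was 0.01 and 0.04. Fitted with the Hongyang libraries alone, 12 members passed in Hongyang, and 11 passed in both cultivars with each fitted alone. Each such fit filtered genes on its own libraries, so members with too few reads there could not pass. It also took its estimate of spread from those libraries alone, and members with ample reads, such as Achn389411, lost the Hongyang call too. Which of these changed the count was not tested. The Hongyang count was 19 without whole fruit replicate 1 and 20 without core replicate 2, the count for both cultivars 18 and 20, and the Jinyan count 28 without core replicate 2 and 26 without core replicate 3.

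Achn389411 had the highest median of all members in whole fruit of both cultivars, although in each Hongyang whole fruit library another member was higher (Achn067501 in replicates 1 and 2, Achn133381 in replicate 3). It had 153, 61.2 and 85.8 CPM in Hongyang core replicates 1 to 3, against 403, 104 and 1286 CPM in Hongyang whole fruit. The Hongyang tissues overlapped, since whole fruit replicate 2 lay below core replicate 1. In Jinyan it had 54.2, 37.3 and 23.8 CPM in the core, against 571, 758 and 803 CPM in whole fruit, without overlap. The means were 38.4 ± 15.2 CPM in the Jinyan core and 711 ± 123 CPM in Jinyan whole fruit (SD, n = 3 each). Its log2 fold change of core over whole fruit was -2.57 ± 0.66 (SE; edgeR adjusted p = 0.0433) in Hongyang and -4.21 ± 0.71 (SE; edgeR adjusted p = 0.00393) in Jinyan. The Hongyang call was lost when any of 11 libraries was left out (edgeR adjusted p of 0.0567 to 0.174), the exception being whole fruit replicate 2; it was also lost with the Hongyang libraries alone (edgeR adjusted p = 0.22) and with replicate number as a block (edgeR adjusted p = 0.0706). Without whole fruit replicate 3 its log2 fold change was -1.36 (edgeR adjusted p = 0.132).

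Achn050721 came next by the smaller of its whole fruit medians in the cultivars. It had 92.9, 5.64 and 11.5 CPM in Hongyang core replicates 1 to 3, against 184, 28.8 and 1252 CPM in Hongyang whole fruit. Core replicate 1 again lay above whole fruit replicate 2. In Jinyan it had 8.21, 9.21 and 5.44 CPM in the core, against 179, 253 and 272 CPM in whole fruit, without overlap. The means were 7.62 ± 1.95 CPM in the Jinyan core and 235 ± 49.2 CPM in Jinyan whole fruit (SD, n = 3 each). Its log2 fold change of core over whole fruit was -3.73 ± 1.14 (SE; edgeR adjusted p = 0.0767) in Hongyang, which missed the threshold, and -4.95 ± 1.22 (SE; edgeR adjusted p = 0.0178) in Jinyan. In Hongyang it passed with DESeq2 (log2 fold change -3.79, DESeq2 adjusted p = 0.0213), without a filter on low counts (-3.70, edgeR adjusted p = 0.0267), without whole fruit replicate 2 (log2 fold change -4.29, edgeR adjusted p = 0.00938) and without core replicate 1 (-5.81, edgeR adjusted p = 0.0269), and its fold change was -1.57 without whole fruit replicate 3. The Jinyan call was lost without core replicate 1, 2 or 3 (edgeR adjusted p = 0.0547, 0.0681 and 0.0712).

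Some members had no counts at all in a core. In the Jinyan core 6 members had 0 counts in all 3 libraries, with means of 2.71 to 32.6 CPM in Jinyan whole fruit. Set against 3 counts over the 3 core libraries, they were at least 36.3-fold to at least 465-fold lower in the Jinyan core. In the Hongyang core only Achn339751 had 0 counts in all 3 libraries. These bounds cover counting error only, and no member was at 0 in all libraries of a whole fruit group.

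The 3 Hongyang whole fruit libraries divided the members into 2 sets that ran opposite to each other. For 22 members (44.9%) replicate 3 was the highest of the 3 libraries, and for all 22 of them replicate 2 was the lowest. For the other 27 members the highest library was replicate 1 in 21 and replicate 2 in 6, and replicate 3 was the lowest in 21. Over all genes tested, replicate 3 was the highest for 31.8% and the lowest for 50.2%. Replicate 1 was the middle library for 27 of 49 members (55.1%) and for 54.6% of all genes tested. Replicates 2 and 3 thus lay at opposite ends about as often over all genes as over the members. The rule used the median of the group and not the order of its libraries, but the sets were formed on these values and are described without a test. With the 3 libraries thinned to the same depth and compared as counts without TMM factors, 25 members were highest in replicate 3. The change from 22 to 25 therefore mixes depth with scaling.

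Set by set, the first stood at a summed 456, 116 and 165 CPM in Hongyang core replicates 1 to 3, against 1106, 252 and 5764 CPM in Hongyang whole fruit. Its median member was 6.67 times as high in whole fruit replicate 3 as in replicate 1, and 0.233 times as high in replicate 2. The second set stood at 41.7, 50.7 and 55.2 CPM in the Hongyang core, against 1537, 1085 and 511 CPM in Hongyang whole fruit. Its median member was 0.265 times as high in replicate 3 as in replicate 1, and 0.762 times as high in replicate 2. By these sums the core libraries of the second set were close to each other, while core replicate 1 stood above the other core libraries in the first. Member by member, core replicate 3 was the highest core library for 16 of the 27 in the second set, where it was for 28.7% of all genes. Core replicate 1 was the lowest for 15 of the 27, where it was for 39.1% of all genes.

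**Figure D3:**
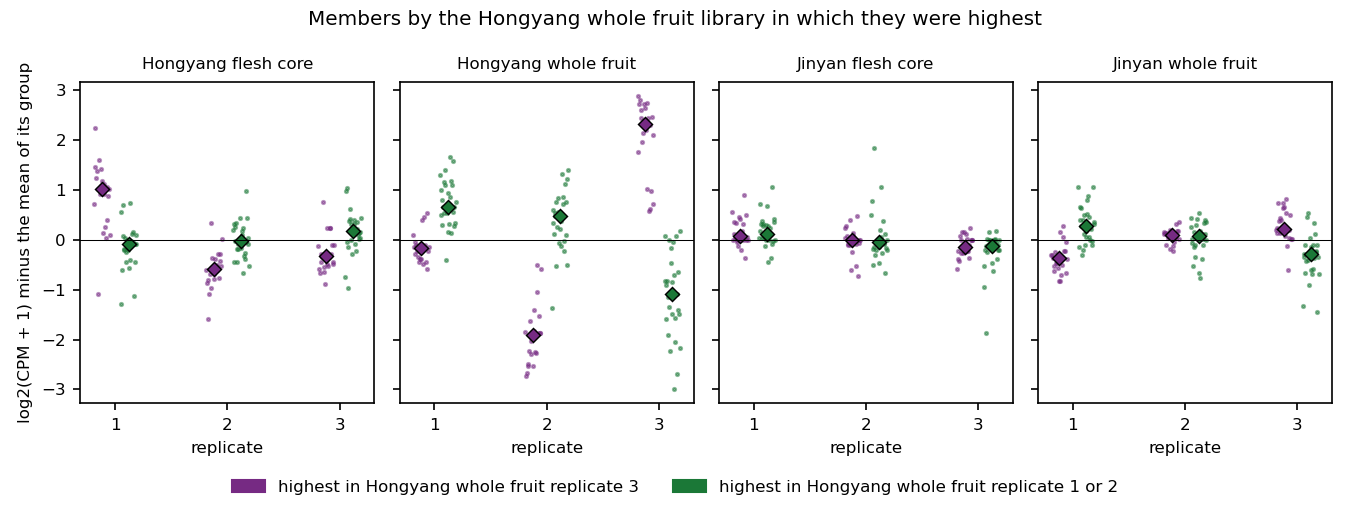
Each member's log2(CPM + 1) in a library minus its mean over the 3 libraries of that group, for the 22 members highest in Hongyang whole fruit replicate 3 (purple) and the other 27 (green); small points are members and diamonds are medians over members. The sets are apart in Hongyang whole fruit, where they were formed, and the purple points are also raised in Hongyang core replicate 1 and lowered in Jinyan whole fruit replicate 1.

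Libraries that did not form the sets also differed between them. Core replicate 1 was the highest Hongyang core library for 19 of the 22 members in the first set and for 5 of the 27 in the second, where it was for 42.9% of all genes that were highest in whole fruit replicate 3 and for 34% of the rest. In Jinyan whole fruit, replicate 3 lay above replicate 1 for 19 of 22 members in the first set and for 5 of 27 in the second, where it did for 56.4% and 49.3% of all genes sorted in the same way. In Jinyan whole fruit the first set summed to 1284, 1756 and 1978 CPM in replicates 1 to 3, and the second to 1139, 839 and 538 CPM. The Jinyan core differed less between the sets, with 128, 102 and 75.2 CPM in the first and 114, 141 and 67.2 CPM in the second. No label describes a difference between the replicates of a group, and what sets these libraries apart was not tested.

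The overlap between the Hongyang tissues came from different whole fruit libraries in the sets. The sets were formed by whether replicate 3 was the highest, which fixed this in part. In the first set, whole fruit replicate 2 was no higher than the highest core library for 17 of 22 members. In the second set, replicate 3 was no higher than the highest core library for 7 of 27 members, and replicate 2 for 0. Replicate 1 lay above all core libraries for every one of the 49 members.

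The shallow Hongyang whole fruit replicate 3 had 0 counts for 6 members, which stood at 5.35 to 24.1 CPM in replicates 1 and 2. A count of 0 in that library allows a level of up to 1.19 CPM. These values lie above it, so the difference is larger than the limit set by the depth of that library.

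Among the 49 members, 8 form 4 pairs with consecutive identifiers, since every identifier in the table ends in 1 and these differ by 10. They are Achn177581 with Achn177591, Achn243641 with Achn243651, Achn387181 with Achn387191, and Achn387441 with Achn387451. In each of the 4 pairs both members belonged to the same set. Achn177581 had 19.6, 2.87 and 139 CPM in Hongyang whole fruit replicates 1 to 3, and its neighbour Achn177591 had 48.8, 9.49 and 420 CPM. Both were lowest in replicate 2 and highest in replicate 3. Genome positions were not used here, so whether these genes lie side by side or share sequence is unknown, and counts of genes that share sequence would be uncertain.

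The cultivars were compared within each tissue. Both were counted on the same gene identifiers, and the sources used here do not name the reference. Reads of the cultivars may map unequally to a gene, which cannot be told apart here from a difference in level. The last step of the rule read the ratio between cultivars, so the counts here describe the members. In whole fruit 5 members passed as higher in Hongyang by edgeR, where 13.7% of all genes did, and 2 passed as lower, where 11.1% did (24.8% in either direction). The 5 make up 10.2% of the members; beside the genes described next they were Achn163281, Achn308081 and Achn387441, named after their values were seen. The Hongyang libraries lay above the Jinyan libraries without overlap for 4 members and below them for 4, where 18.7% of all genes did in each direction. The median log2 fold change of Hongyang over Jinyan in whole fruit was 0.50 over the members and 0.08 over all genes, and it was -0.44 over the members without Hongyang whole fruit replicate 3 and -0.012 with replicate number as a block. With the gene put back that the rule had removed, 8 in place of 7 genes passed. Without Hongyang whole fruit replicate 3, 13 members passed.

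Achn200051 and Achn067501 had the largest differences among members higher in Hongyang whole fruit. Achn200051 had 82.1, 59.6 and 34.9 CPM in Hongyang whole fruit replicates 1 to 3, against 6.56, 9.21 and 5.82 CPM in Jinyan whole fruit. The cultivars did not overlap, and its log2 fold change was 3.05 ± 0.69 (SE; edgeR adjusted p = 0.00601). Achn067501 had 643, 396 and 195 CPM in Hongyang whole fruit, against 87.7, 55.9 and 34.9 CPM in Jinyan whole fruit, also without overlap, a log2 fold change of 2.79 ± 0.40 (SE; edgeR adjusted p = 0.000305). Both calls held under all 18 alternatives run for them.

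Achn236641 and Achn387181 were the members that passed as lower in Hongyang whole fruit. Achn236641 had 85.0, 12.6 and 35.7 CPM in Hongyang whole fruit replicates 1 to 3, against 497, 282 and 94.1 CPM in Jinyan whole fruit. Its log2 fold change was -2.70 ± 0.67 (SE; edgeR adjusted p = 0.0103), and the call was lost without Jinyan whole fruit replicate 1 (edgeR adjusted p = 0.051). Achn387181 had 7.41 and 5.35 CPM in Hongyang whole fruit replicates 1 and 2 and 0 counts in replicate 3, against 18.6, 21.1 and 32.4 CPM in Jinyan whole fruit. Its log2 fold change was -2.29 ± 0.63 (SE; edgeR adjusted p = 0.0184), and the call was lost without Jinyan whole fruit replicate 3 (edgeR adjusted p = 0.0829). In both genes every Hongyang library lay below every Jinyan library.

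**Figure D4:**
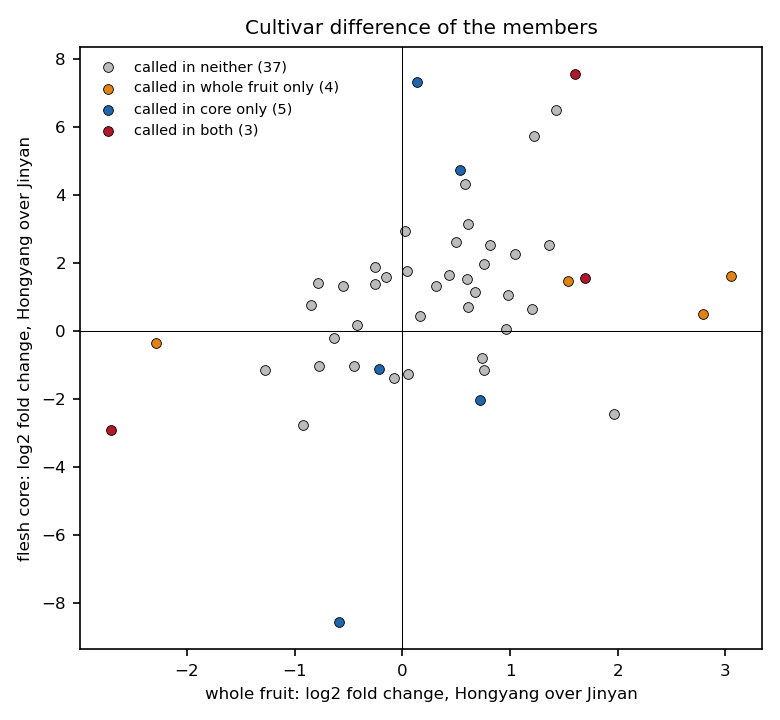
Log2 fold change of Hongyang over Jinyan in whole fruit (horizontal axis) and in flesh core (vertical axis) for the 49 members, coloured by the tissue in which the edgeR adjusted p was under 0.05. Of the members, 3 passed in both tissues, 4 in whole fruit, 5 in the core and 37 in neither; values beyond 4 in either direction on the vertical axis belong to genes with few or no counts in 1 of the cores.

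In the flesh core 4 members passed as higher in Hongyang, where 16% of all genes did, and 4 passed as lower, where 13.9% did (30% in either direction). The Hongyang core lay above the Jinyan core without overlap for 11 members, where 29.8% of all genes did, and below it for 6, where 25.3% did. Beside the genes described next, Achn008781, Achn308081 and Achn250231 passed as higher and Achn339751 and Achn086151 as lower, all named after their values were seen. The median log2 fold change of Hongyang over Jinyan was 1.31 over the members and 0.11 over all genes. Over the members it was 0.41 without Hongyang core replicate 1. With the core libraries alone it was 0.74, but over fewer members, since those with too few core reads failed the filter. The 1.31 and the 0.74 therefore do not cover the same genes. The number of members that passed was 17 without Hongyang whole fruit replicate 3, 13 without Hongyang whole fruit replicate 2 and 5 without Hongyang core replicate 3. With DESeq2 it was 14, and without a filter on low counts 13.

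Achn163281 was the member named as higher in the Hongyang core, with 8.51, 5.64 and 9.09 CPM there, against 2.14, 2.85 and 2.96 CPM in the Jinyan core. Its log2 fold change was 1.55 ± 0.48 (SE; edgeR adjusted p = 0.0255), without overlap, and the call was lost without Hongyang core replicate 1 or 3 (edgeR adjusted p = 0.0621 and 0.0766) and without Jinyan core replicate 1, 2 or 3 (edgeR adjusted p = 0.0927, 0.0684 and 0.0626). It was higher in Hongyang whole fruit as well, at 63.3, 17.4 and 98.5 CPM, against 20.1, 15.3 and 18.8 CPM in Jinyan whole fruit, where replicate 2 of Hongyang lay among the Jinyan libraries (log2 fold change 1.70 ± 0.44, SE; edgeR adjusted p = 0.014). Achn236641, described above for whole fruit, was also lower in the Hongyang core, at 10.02, 7.47 and 3.41 CPM, against 50.8, 70.6 and 34.3 CPM in the Jinyan core (log2 fold change -2.91 ± 0.69, SE; edgeR adjusted p = 0.0062). Achn081291 had 2.71, 4.34 and 2.84 CPM in the Hongyang core, against 9.50, 6.28 and 5.85 CPM in the Jinyan core. The difference was -1.12 on the log2 scale ± 0.40 (SE; edgeR adjusted p = 0.0481), and the call was lost without any of 8 libraries (edgeR adjusted p of 0.0545 to 0.162), namely Hongyang core replicates 1 and 3 and the 6 Jinyan libraries, and when scaled by library totals (edgeR adjusted p = 0.121).

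The tissue differences of the cultivars were set against each other through the interaction, the log2 fold change of core over whole fruit in Hongyang minus that in Jinyan. A positive value means a smaller fall in the Hongyang core. By edgeR 2 members had a positive value that passed, where 1.25% of all genes did, and 2 a negative one, where 1% did; the 4 compare with 2.25% of all genes in either direction. The rule asked for a fall in both cultivars and so limited this measure. The count of 4 was 10 without Hongyang whole fruit replicate 3, 2 without Hongyang whole fruit replicate 1 or Hongyang core replicate 2 or 3, and 1 without any 1 of the 6 Jinyan libraries.

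Achn339751 and Achn067501 fell further in Hongyang. Achn339751 had 0 counts in the 3 Hongyang core libraries, against 6.54, 13.6 and 7.94 CPM in Hongyang whole fruit, at least 172-fold lower. In Jinyan it had 3.92, 3.43 and 3.23 CPM in the core, against 18.8, 17.9 and 6.47 CPM in whole fruit, a log2 fold change of -2.02 ± 0.42 (SE; edgeR adjusted p = 0.0111). Achn067501 had 9.95, 9.16 and 9.04 CPM in the Hongyang core, against 643, 396 and 195 CPM in Hongyang whole fruit. In Jinyan it had 8.27, 5.61 and 5.85 CPM in the core, against 87.7, 55.9 and 34.9 CPM in whole fruit. The core levels of the cultivars lay close together, with a log2 fold change of Hongyang over Jinyan of 0.51 ± 0.40 (SE; edgeR adjusted p = 0.362), and the whole fruit levels were apart, as given above.

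Achn308081 and Achn250231 fell further in Jinyan. Achn308081 had 1.43, 2.60 and 1.18 CPM in the Hongyang core, against 61.9, 40.4 and 30.2 CPM in Hongyang whole fruit. In Jinyan it had 0 counts in the 3 core libraries, against 13.6, 15.4 and 15.0 CPM in whole fruit, at least 209-fold lower. Achn250231 had 1.21, 3.04 and 2.04 CPM in the Hongyang core, against 11.6, 12.4 and 1.99 CPM in Hongyang whole fruit, where replicate 3 lay within the range of the core. In Jinyan it had 0.0613 and 0.167 CPM in core replicates 1 and 2 and 0 counts in replicate 3, against 6.29, 7.03 and 5.91 CPM in whole fruit.

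**Figure D5:**
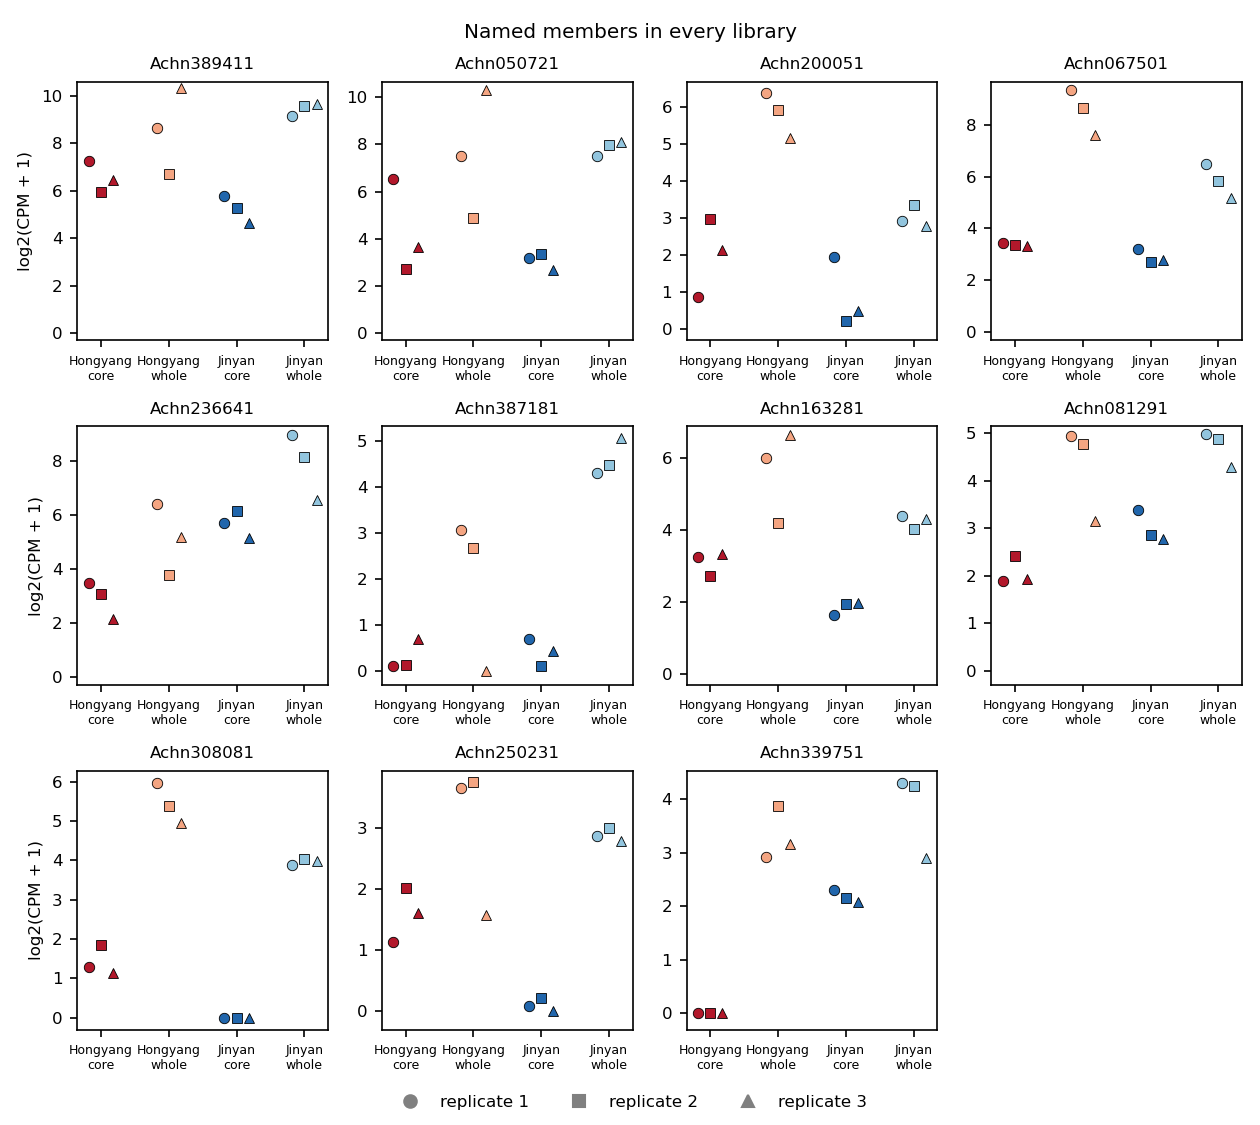
Level of the 11 members named by rule in every library, as log2(CPM + 1), with core left of whole fruit in each cultivar and 1 marker shape per replicate. Achn389411 and Achn050721 show Hongyang whole fruit replicate 2 within or near the range of the Hongyang core, and Achn308081 and Achn339751 lie at 0 in 1 of the cores.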

How the data were processed

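Poly(A) RNA from 12 libraries was sequenced as paired ends, per the labels' protocols, on HiSeq instruments of more than 1 model, and since the labels do not tie libraries to models, no such batch could be examined. The table the authors deposited gives whole, unnormalized counts for each gene identifier. The submitters' processing notes name Trimmomatic 0.36 for trimming and HISAT2 2.1.0 for alignment. For the counting program, build and annotation, nothing was given in the sources used here. No strand-marking step is named, so whether the counts tell antisense and overlapping genes apart is unknown.

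Genes were kept by filterByExpr, scaled by TMM and fitted with edgeR 4.0.16 (R 4.3.3) in 1 quasi-likelihood model, with a mean for each of 4 groups and 12 libraries, so that groups share 1 estimate of spread. Calls are at a two-sided Benjamini-Hochberg adjusted p under 0.05; standard errors are the absolute log2 fold change over the square root of F. A fitted fold change against a group at 0 depends on the prior count; bounds use 3 counts over its 3 libraries. The fit was tested on simulated data for core against whole fruit in Jinyan alone (21502 genes). It recovered 88% of 100 genes lowered 4-fold and 16% of 100 lowered 2-fold. These genes averaged at least 5 CPM before they were lowered, so the recovery does not speak for genes at lower levels. The rule was run on simulated counts as well, for genes of higher level and smaller spread between replicates than the median member. That run does not speak for genes like most members. Alternatives were DESeq2 1.42.0, library totals, other filters, separate fits, a replicate block and leaving out each library.

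Members and lists were chosen with earlier results of these data known. Named by rule are the 2 members highest in whole fruit (smaller of the cultivar medians) and, for each cultivar contrast and the interaction, up to 2 in each direction by fold change among called members, for cultivar contrasts with at least 5 CPM in a group and no overlap. Lists of genes by product name (seed, skin, chloroplast, vascular and metabolic genes) need gene names, which the table lacks, so none was tested. Replicates of a group always differed by more than sampling noise (their chi-square over degrees of freedom ran from 6.1 to 138).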

Additional observations from a re-analysis of the deposited data

Results flagged for a closer look

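For 4 members the tissue difference depended on the cultivar by edgeR's interaction test, with the value given as the log2 fold change of core over whole fruit in Hongyang minus that in Jinyan. Achn339751 stood at -7.97 ± 1.10 (SE; edgeR adjusted p = 0.00627); it was at 0 in the Hongyang core, so the size of this value depends on the prior count, and its call held under all 17 alternatives run. Achn308081 stood at 5.94 ± 1.12 (SE; edgeR adjusted p = 0.0236) with 0 counts in the Jinyan core, to which the same limit applies, and its call was lost without any 1 of the 6 Jinyan libraries (edgeR adjusted p of 0.0504 to 0.0665). Achn250231 stood at 4.20 ± 1.00 (SE; edgeR adjusted p = 0.0466), and its call was lost without any of 9 libraries (edgeR adjusted p of 0.074 to 0.121), the exceptions being Hongyang whole fruit replicates 2 and 3 and Hongyang core replicate 1. Achn067501 stood at -2.29 ± 0.55 (SE; edgeR adjusted p = 0.0494), and its call was lost without any of 10 libraries (edgeR adjusted p of 0.0518 to 0.124), the exceptions being Hongyang whole fruit replicates 2 and 3, and when scaled by library totals (edgeR adjusted p = 0.066).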

How the results depend on the processing

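The number of genes that met the rule moved with its settings: 76 with library totals only, 8 with 5 CPM added to the medians, 7 at a ratio of at least 8 and 328 at a ratio of at least 2. With group means in place of medians 54 genes met it, and 36 of these were members. Leaving out 1 library gave 31 (without Hongyang core replicate 2, 29 of them members) to 77 genes (without Hongyang whole fruit replicate 2, 45 of them members). Members that passed numbered 14 with DESeq2 and 13 without a filter for Hongyang against Jinyan in the core, and 12 in Hongyang and 11 in both cultivars for core against whole fruit when each contrast was fitted on its own libraries. Leaving out 1 library gave 26 to 48 members for core against whole fruit in Jinyan, 19 to 48 in Hongyang and 18 to 47 in both, 5 to 13 for the cultivars in whole fruit, 5 to 17 in the core and 1 to 10 for the interaction. The median log2 fold change of the members over the same libraries ran from -4.52 to -4.09 for core against whole fruit in Jinyan, from -4.39 to -3.10 in Hongyang, from -0.44 to 0.63 for the cultivars in whole fruit, from 0.41 to 1.37 in the core and from -0.016 (without Hongyang core replicate 1) to 1.60 for the interaction. With library totals only the median in Jinyan was -4.77, and all genes shifted by -0.44 on the log2 scale, with all 49 members below 0. In the core the cultivar median was 0.74 with its own libraries, over the members that passed the filter there. Each separate fit filtered genes on its own libraries, so members with too few reads in them dropped out. Its estimate of spread came from those libraries alone. A replicate block gave 28 in place of 33 members in Hongyang and turned the cultivar median in whole fruit to -0.012. Same-numbered libraries correlated at -0.092 to 0.183 in their deviations from group means. Of 12 comparisons, 5 correlated best with their own number, with 3 possible partners in each. In whole fruit all 3 Hongyang libraries correlated best with the Jinyan library of their own number (0.041, 0.111 and 0.136), a hint from the data and not from the design, and since not every correlation passed 0.1 the numbers were not taken to pair the samples. The causes of these shifts were not tested. A count of 0 allows a level of up to 1.19 CPM in Hongyang whole fruit replicate 3 and of 0.142 to 0.251 CPM in the core libraries.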
